A study of Mus musculus with 6 samples.

Results

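General blood endothelium of the mouse lung was examined in single cells, that is, the blood vessel lining other than the aerocyte capillary cells. Cells were chosen by their transcripts. A barcode counted as a member when it had a unique molecular identifier (UMI, 1 count per captured RNA molecule) for at least 3 of the 6 endothelial genes Cdh5, Pecam1, Cldn5, Egfl7, Calcrl and Ptprb. It also had to have fewer than 2 UMIs of the aerocyte genes Car4 and Ednrb together and none of the lymphatic genes Prox1 and Mmrn1 or of Ptprc, the pan-leukocyte gene CD45. Of 25704 barcodes that passed the quality limits of at least 1000 UMIs, at least 500 genes and at most 10% mitochondrial UMIs, 536 were members (2.09%).

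All 6 mice were 12-week-old males of the hCTLA4 genotype, a humanized CTLA4 knock-in whose human segment binds ipilimumab, an antibody that blocks the T cell checkpoint protein CTLA4. Every mouse received bleomycin, a lung-injuring drug, at 1.25 U/kg into the airways in 2 doses 2 weeks apart, and so there was no uninjured control. Antibody was begun 21 days after the second of these, when 3 mice received IgG1 isotype antibody and 3 received ipilimumab at 5 mg/kg, both given into the peritoneum, ipilimumab 2 times a week for 4.5 weeks. The right lung of each mouse was digested with collagenase and DNase and gave 1 10x Genomics 3′ library, with no sorting for endothelium stated. The libraries held from 37666042 to 48612412 UMIs over all barcodes.

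Lung capillaries hold a pair of endothelial cell types. General capillary cells express the apelin receptor and the stem cell factor receptor Kit and act as capillary progenitors, while aerocytes are large thin cells over which gas is exchanged. Gpihbp1 holds lipoprotein lipase on the capillary surface, Plvap forms the diaphragms of endothelial openings and vesicles, and Vwf encodes von Willebrand factor, which tethers platelets and is richest in veins and larger vessels.

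The library of ipilimumab replicate 1 stood apart from the rest before any gene was compared. It had 22056 barcodes of at least 100 UMIs, where the other libraries had 4834 to 6230, and 80.8% of its UMIs were in passing barcodes, where the others had 92.1% to 92.3%. Of its members, 28.4% carried UMIs of 2 or more genes of another lineage, which marks a possible doublet (2 cells under 1 barcode), while the other ipilimumab mice had 9.41% and 13.8% and the IgG1 mice 4%, 11.4% and 3.23%. No member barcode was a member in another library, and 7 member barcodes also passed the quality limits in another library. The member shares and the genes called are given without this mouse as well.

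Marker genes of other lineages were also set against their share in near-empty barcodes, as an estimate of RNA from outside the cell. The estimate was 0.735%, 1.31% and 0.272% of member UMIs in the IgG1 mice and 4.42%, 1.37% and 2.40% in the ipilimumab mice, so that every ipilimumab mouse was above every IgG1 mouse, replicate 2 by a narrow margin. Possible doublets carry the same markers, so RNA from outside the cell and RNA of a second cell cannot be told apart in this estimate.

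The member share of passing barcodes was 2.21%, 0.810% and 0.927% in the IgG1 mice (100, 35 and 31 cells) and 3.0%, 2.04% and 3.11% in the ipilimumab mice (155, 85 and 130 cells). A pair of IgG1 mice lay below all others, whereas IgG1 replicate 1 lay above ipilimumab replicate 2, so the groups overlapped. The mean was 1.31% ± 0.775 (SD, n = 3) with IgG1 and 2.72% ± 0.586 (SD, n = 3) with ipilimumab, a difference that did not pass an exact permutation test (two-sided, p = 0.2; the smallest p with 3 against 3 mice is 0.1). Without ipilimumab replicate 1 the difference went from 1.40 to 1.26 percentage points (exact permutation p = 0.3). It was 0.981 without possible doublets (exact permutation p = 0.2) and 0.725 without members holding a T, B or NK marker UMI (exact permutation p = 0.3). Cells left out only for a Ptprc UMI numbered 40, 15 and 37 in the IgG1 mice and 91, 40 and 46 in the ipilimumab mice, more of them in ipilimumab replicate 1 than in any other mouse.

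Aerocytes, which met the same gate but held 2 or more Car4 and Ednrb UMIs, numbered 283 and made up 1.01% ± 0.402 (SD, n = 3) of passing barcodes with IgG1 and 1.20% ± 0.411 (SD, n = 3) with ipilimumab. As a share of both blood endothelial sets together, members were 68.5%, 57.4% and 39.7% in the IgG1 mice and 67.7%, 73.9% and 68.4% in the ipilimumab mice. IgG1 replicate 1 lay among the ipilimumab mice, and the difference of 14.8 percentage points had an exact two-sided permutation p of 0.3. It was 16.0 without ipilimumab replicate 1 (exact permutation p = 0.3) and 7.07 without IgG1 replicate 3 (exact permutation p = 0.3). Without IgG1 replicate 1 it was 21.4 and the groups no longer overlapped (exact permutation p = 0.1, the smallest that 2 against 3 mice allow). Cell shares in a digested lung count what was released and captured, not the cells present in the tissue.

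**Figure D1:**
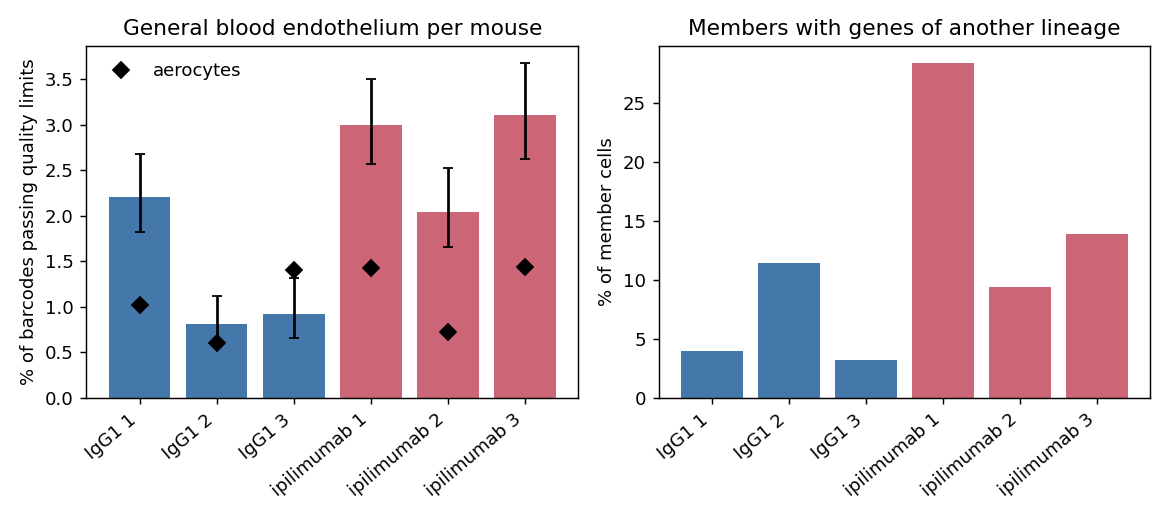
Left, the member share of passing barcodes in each mouse (bars, %, with the 95% Wilson interval, which covers counting error only) and the aerocyte share (diamonds); right, the percent of members with UMIs of 2 or more genes of another lineage. The IgG1 mice spread from 0.810% to 2.21%, into the range of the ipilimumab mice, and ipilimumab replicate 1 has the highest share of possible doublets at 28.4%.

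By their markers, members were blood endothelial cells of mostly capillary type with some cells of larger vessels. They had a median of 3486 UMIs and ranged from 1002 to 35526. Of the genes that formed the gate, given as description, Calcrl was detected in 95.5% of members, Ptprb in 94.4%, Cldn5 in 90.5%, Cdh5 (VE-cadherin) in 85.4%, Pecam1 in 83.6% and Egfl7 in 72.0%. None of these 6 genes had a UMI in the 3041 B cells, whose definition required this. All 6 were seen in 280 members and only 3 in 44 members.

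Cells just inside and just outside the gate were compared as description. Members with 3 endothelial genes had a median of 1628.5 UMIs and 22.7% of them had a Gpihbp1 UMI, while the 112 barcodes with 2 endothelial genes, just outside, had a median of 4585 UMIs and 7.14% with a Gpihbp1 UMI. Among the 74 members with 1 UMI of Car4 or Ednrb, 62.2% had a UMI of Kdr, the main VEGF receptor, and 18.9% one of the aerocyte factor Tbx2. In the 27 barcodes with 2 such UMIs, just outside, the values were 77.8% and 22.2%, and in those with 3 or more they were 98.0% and 82.4%. Gpihbp1 was detected in 59.5%, 51.9% and 18.4% of these sets and Apln in 5.41%, 7.41% and 73.0%. For both genes the larger change lay at 3 or more UMIs. Kit, at 68.9%, 37.0% and 5.47%, and Vwf, at 16.2%, 7.41% and 2.73%, already fell at the edge itself. The sets had medians of 3540.5, 2280 and 7450.5 UMIs and were not compared at equal depth.

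Genes outside the gate separated members from aerocytes, and these shares are descriptive because the gate divided the sets. Cd93, a lectin-like surface protein of endothelium, was detected in 82.5% of members and 10.6% of aerocytes. Kit was detected in 65.9% of members and 8.48% of aerocytes. The apelin receptor Aplnr was found in 22.6% of members and 4.59% of aerocytes. The chemokine Cxcl12 was detected in 42.9% of members and 6.01% of aerocytes, and the connexin gene Gja4 in 27.6% and 5.30%.

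The aerocyte side was the reverse. The ligand Apln was detected in 1.49% of members and 66.8% of aerocytes, Fibin in 1.87% and 79.9%, and the sulfotransferase gene Chst1 in 0.560% and 67.1%. Kdr was detected in 48.9% of members and 96.1% of aerocytes. Aerocytes were deeper, with a median of 7089 UMIs, which by itself raises the share of cells with a UMI. Cd93 and Kit were nevertheless more frequent in the shallower member cells.

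**Figure D2:**
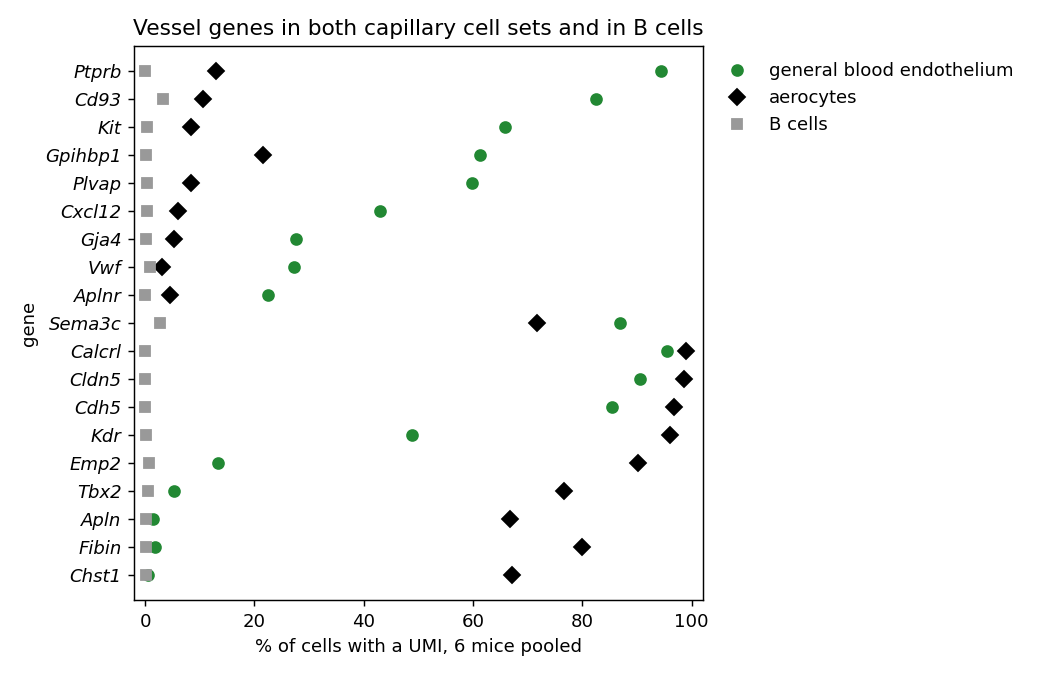
Percent of cells with a UMI (horizontal axis) for 19 vessel genes in general blood endothelium (circles), aerocytes (diamonds) and B cells (squares), over all 6 mice. Ptprb, Cd93 and Kit lie far to the right in general blood endothelium and under 14% in aerocytes, while Apln, Fibin and Chst1 show the reverse.

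At least 2 of 6 general capillary markers (Gpihbp1, Aplnr, Plvap, Kit, Cd93 and Sema3c) were detected in 91.0% of members and 21.9% of aerocytes. At least 2 of 6 aerocyte markers were detected in 12.1% of members. The arterial list of 10 genes, which contains several genes that capillaries share, reached 2 genes in 60.8% of members, and the venous list of 8 genes in 19.2%. Markers of systemic vessels around the bronchi reached 2 genes in 1.49%. Of the lymphatic list, Lyve1 made up 88.5% of the UMIs and was detected in 37.1% of members and 31.1% of aerocytes, while the defining lymphatic gene Ccl21a had no UMI in any member.

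Gpihbp1 (ENSMUSG00000022579, chr15:75596628-75599481 of GRCm38) was detected in 64.0%, 65.7% and 58.1% of members of the IgG1 mice and in 54.8%, 67.1% and 62.3% of members of the ipilimumab mice. The highest and the lowest mouse were both ipilimumab mice, and the groups overlapped throughout. The means were 62.6% ± 4.01 and 61.4% ± 6.16 (SD, n = 3 each; exact two-sided permutation p = 0.7). Without ipilimumab replicate 1 the sign turned, from -1.19 to 2.09 percentage points. B cells, which should lack the gene, had a Gpihbp1 UMI in 0.164% of cells at a median of 4966 UMIs. Their definition leaves out B cell barcodes with a UMI of the 6 endothelial genes. The B cell shares of Gpihbp1, Plvap and Vwf may therefore understate the background.

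Plvap (ENSMUSG00000034845, chr8:71497765-71511752) was detected in 66.0%, 71.4% and 61.3% of members with IgG1 and in 52.9%, 61.2% and 59.2% with ipilimumab. All 3 ipilimumab mice were lower than all 3 IgG1 mice, by a narrow margin between 61.2% and 61.3%. The difference of -8.47 percentage points had an exact two-sided permutation p of 0.1, the smallest possible, and 0.15 after Benjamini-Hochberg adjustment over the 3 genes. Without ipilimumab replicate 1, the lowest mouse, it was -6.04 (exact permutation p = 0.2). The difference turned to 2.63 with no Car4 and Ednrb limit and was -15.8 at 5% mitochondrial UMIs. When each cell was thinned to 1000 UMIs, the shares were 34.5% ± 4.75 and 30.3% ± 2.10 (SD, n = 3 each), the groups overlapped and the exact permutation p was 0.2. In B cells 0.296% had a Plvap UMI.

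Vwf (ENSMUSG00000001930, chr6:125546774-125686679) was detected in 30%, 31.4% and 35.5% of members with IgG1 and in 27.7%, 17.6% and 27.7% with ipilimumab. All 3 ipilimumab mice were again lower, with ipilimumab replicate 2 lowest. The difference was -7.94 percentage points (exact two-sided permutation p = 0.1, adjusted 0.15), and it was -9.63 without ipilimumab replicate 1 and -4.59 without ipilimumab replicate 2 (exact permutation p = 0.1 and 0.2). At 1000 UMIs per cell the shares were 17.9% ± 1.72 and 11.9% ± 3.97 (SD, n = 3 each; exact permutation p = 0.1, adjusted 0.3). The groups overlapped at 2000 UMIs, at 5% mitochondrial UMIs and without cells holding a T, B or NK marker UMI (exact permutation p = 0.3 each). They also overlapped with no Car4 and Ednrb limit (exact permutation p = 0.5). The share in B cells was 0.987%.

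**Figure D3:**
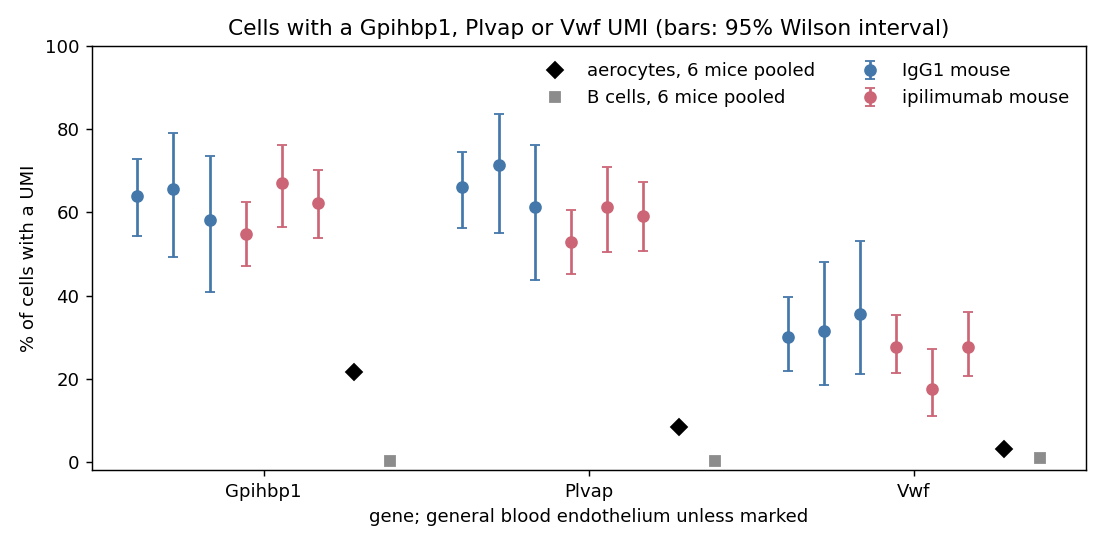
Percent of member cells with a Gpihbp1, Plvap or Vwf UMI in each mouse (points, with 95% Wilson intervals for counting error), beside the pooled share in aerocytes (diamonds) and B cells (squares). Gpihbp1 overlaps between IgG1 and ipilimumab mice, while the ipilimumab mice lie lower for Vwf, 17.6% to 27.7% against 30% to 35.5%, with intervals that overlap.

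Summed over the members of a mouse, none of the 3 genes passed the test between treatments. In edgeR's quasi-likelihood test the log2 fold change (ipilimumab over IgG1) was -0.14 for Gpihbp1, -0.13 for Plvap and -0.44 for Vwf, with adjusted p of 0.948, 0.951 and 0.915. For Vwf, ipilimumab replicate 2 was at 105 CPM (counts per 1000000 UMIs of the members, scaled between mice by TMM factors), while the other 5 mice lay between 314 and 611. Without that mouse the log2 fold change of Vwf was -0.041, and without ipilimumab replicate 1 it was -0.70. Single cells weighed on these sums, since the richest cell of a mouse held 15.8% to 33.3% of its Vwf UMIs.

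The 3 genes marked overlapping sets of cells. Gpihbp1 and Plvap without Vwf was the most frequent combination, in 150 of the 536 members, and 83 members had all 3 genes. Gpihbp1 alone was seen in 75 members, Plvap alone in 58 and Vwf alone in 13, and 107 had none of the 3. A Vwf UMI was present in 31.4% of members with a Gpihbp1 UMI and in 20.7% of those without. This order held in 5 of the 6 mice and was the reverse in IgG1 replicate 2, at 21.7% and 50%. These shares come from sparse counts, in which a deeper cell shows more genes, and they were not compared at equal depth.

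Cells with Vwf and no Gpihbp1 UMI (43 cells, median 2964 UMIs) were set beside those with Gpihbp1 and no Vwf (225 cells, median 3976 UMIs). The shares are description with the cells of 6 mice pooled, and the first set had only 4 to 13 cells per mouse. Slc6a2, the noradrenaline transporter and a lung venous marker, was detected in 20.9% of the first and in none of the second, which allows up to 1.33% of such cells to hold a UMI (counting error only, with the cells of 6 mice pooled) and sets no limit on expression. Selp, the P-selectin gene of veins, was found in 11.6% and 0.444%. Of the 7 venous genes other than Vwf, 5 were more frequent in the Vwf cells. The 10 arterial genes were mixed, with 4 more frequent and 6 less frequent in the Vwf cells, and 6 and 4 at 1000 UMIs per cell. Fbln5, an elastic fibre gene, was detected in 16.3% and 0.889% and the arterial connexin Gja5 in 11.6% and 1.78%, whereas Efnb2 was detected in 46.5% and 64.9% and Sox17 in 32.6% and 43.6%.

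Of the 5 general capillary genes other than Gpihbp1, 3 were less frequent in the Vwf cells. Kit was detected in 34.9% of the cells with Vwf and no Gpihbp1 and in 75.1% of those with Gpihbp1 and no Vwf. Aplnr was detected in 6.98% and 28.4%, and Sema3c in 69.8% and 92.9%. Plvap, at 69.8% and 66.7%, and Cd93, at 90.7% and 88.0%, were not lower. Lyve1 was more frequent in the Vwf cells, at 62.8% against 36.9%. Over single mice, Kit ran from 15.4% to 66.7% in the Vwf cells and from 55.6% to 90.9% in the others. Lyve1 ran from 23.1% to 100% and from 16.7% to 47.7%. Of the genes named in this comparison, only Slc6a2 had ranges over mice that did not overlap (7.69% to 50% against 0%). At 1000 UMIs per cell the order of each gene named here was the same other than that of Cd93 (59.8% and 61.2%), with Slc6a2 at 12.5% and 0%, Kit at 19.1% and 38.1% and Lyve1 at 38.0% and 15.2%. Members with neither gene (165 cells) were shallow, with a median of 1926 UMIs, and 56.4% of them had a Kit UMI.

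Of 38 vessel genes with a UMI in members that the gate did not use, 5 had shares that did not overlap between treatments both in all UMIs and at 1000 UMIs, 3 of them lower with ipilimumab (Efnb2, Sox17 and Vwf) and 2 higher (Fibin and Vwa1, at 10 cells or fewer each). By the same measure 5.03% of all 17056 genes with a member UMI outside the gate did not overlap, many of them at a few UMIs. These genes were singled out after their values were seen. Efnb2, the arterial ephrin ligand, was at 571, 722 and 577 CPM with IgG1 and at 465, 473 and 328 CPM with ipilimumab. The groups did not overlap, yet its log2 fold change of -0.56 (SE 0.230) had an adjusted p of 0.646 in edgeR's quasi-likelihood test. In these summed levels, 11.3% of all 5533 genes tested had groups that did not overlap. For the arterial factor Sox17 the summed level overlapped, with a log2 fold change of -0.49 (adjusted p = 0.774 by edgeR; -0.25 without IgG1 replicate 1).

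RNA of other cell types was present in the members and differed between the mice. The 5 B cell markers summed to 41.7, 60.0 and 13.7 CPM with IgG1 and to 324, 146 and 252 CPM with ipilimumab. Every ipilimumab mouse was higher than every IgG1 mouse (exact two-sided permutation p = 0.1), Igkc supplied 61.9% of these UMIs, and none of the 5 genes was at 0. The 5 T cell markers were at 2.32, 0 and 6.86 CPM with IgG1 and 48.7, 6.22 and 51.7 CPM with ipilimumab, with ipilimumab replicate 2 within the IgG1 range. Airway genes (4 genes, chiefly Scgb1a1) were at 25.5, 60.0 and 13.7 CPM with IgG1 and 217, 96.3 and 302 CPM with ipilimumab, again without overlap. The estimate of RNA from outside the cell and the share of possible doublets are given above, and their part in these differences was not tested.

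AT2 and fibroblast RNA was concentrated in a single mouse. The 5 markers of alveolar type 2 (AT2) cells, the surfactant-making cells, were at 9.27, 0 and 0 CPM with IgG1 and at 6822, 12.4 and 43.7 CPM with ipilimumab. Here too every ipilimumab mouse was higher than every IgG1 mouse (exact two-sided permutation p = 0.1). The margin between IgG1 replicate 1 (9.27 CPM) and ipilimumab replicate 2 (12.4 CPM) was narrow and rests on a few UMIs in each. Sftpc gave 81.8% of the AT2 marker UMIs, and 15 of the 16 members with 2 or more AT2 genes were in ipilimumab replicate 1. The 6 fibroblast markers were at 341 CPM in that mouse, where 1 cell held 92.1% of them, and at 0 to 6.86 CPM in the others. The 8 myeloid markers, chiefly Lyz2, were at 895 CPM in that mouse and at 54.9 to 214 CPM in the others. The 4 NK markers (0 to 30.2 CPM), the 6 pericyte and smooth muscle markers (4.64 to 28.6 CPM), the 4 AT1 markers (53.4 to 213 CPM) and the mesothelial, platelet and red cell markers (each at most 34.3 CPM) were present at the levels given.

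**Figure D4:**
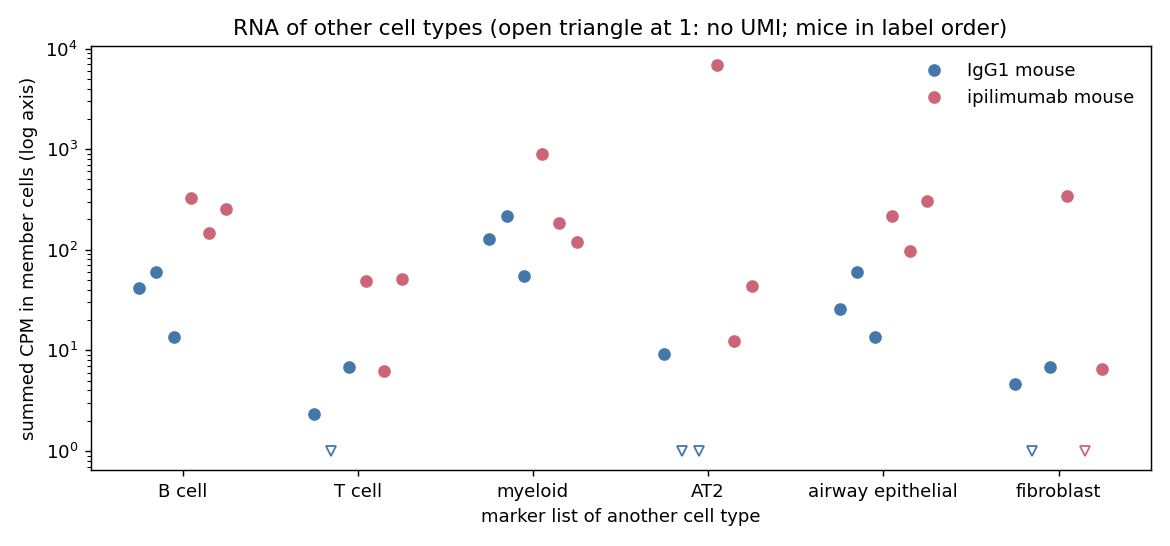
Summed CPM (log axis) of marker lists of 6 other cell types in the members of each mouse, with IgG1 mice in blue and ipilimumab mice in red. B cell, airway and AT2 markers are higher in every ipilimumab mouse than in every IgG1 mouse, AT2 markers by a narrow margin at a few UMIs. AT2 markers reach 6822 CPM in ipilimumab replicate 1.

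With UMIs summed per mouse, 4 of 5533 genes tested differed between treatments (0.0723%), all higher with ipilimumab, and none was lower. Calls required an adjusted p under 0.05 in edgeR's quasi-likelihood test and a log2 fold change beyond 0.3 either way. The 4 genes, Arhgap15, Satb1, Bank1 and Igkc, are known from lymphocytes. At an unadjusted p under 0.05 there were 382 genes, and the median log2 fold change over all genes tested was -0.0016. DESeq2 called 5 genes, 4 higher and 1 lower, which included 3 of these 4 and not Satb1 (log2 fold change 3.47, adjusted p = 0.0791 by DESeq2).

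The calls depended on the gate. With no Car4 and Ednrb limit all 4 were among 16 genes called, and with at least 4 endothelial genes 0 were called by edgeR, with 359 at an unadjusted p under 0.05. With at least 2 endothelial genes 0 genes were called by edgeR, 384 had an unadjusted p under 0.05, and the log2 fold change was -0.83 for Arhgap15, -0.53 for Satb1 and -0.58 for Bank1. With the gate applied after thinning to 1000 UMIs 0 were called, 401 had an unadjusted p under 0.05, and Arhgap15 was at -0.52. Igkc was higher with ipilimumab in each alternative in which it was tested.

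Arhgap15, a Rac GTPase-activating protein of leukocytes (chr2:43748824-44395953), was at 2.46, 9.25 and 7.31 CPM in the IgG1 mice and at 90.8, 98.0 and 66.4 CPM in the ipilimumab mice. The groups were far apart, but the IgG1 mice held 3 UMIs in all against 116. The ratio of the pooled CPM was 17.5 (95% counting interval 5.83 to 85.9) and the fitted log2 fold change was 4.06 (SE 0.563, adjusted p = 0.00692 by edgeR). The interval takes each UMI as independent and covers neither the spread between mice nor UMIs that share a cell. In ipilimumab replicate 2, 1 cell held 28 of the 29 Arhgap15 UMIs.

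Satb1, a chromatin organizer of T cells (chr17:51736187-51833290), was at 7.38, 0 and 7.31 CPM with IgG1 and at 69.0, 57.4 and 71.8 CPM with ipilimumab. The ipilimumab mice lay close together and above every IgG1 mouse (log2 fold change 3.38, SE 0.549, adjusted p = 0.0258 by edgeR). In ipilimumab replicate 2, however, 1 cell held 16 of the 17 Satb1 UMIs. Bank1, a B cell scaffold (chr3:136053363-136326066), had 1 UMI in the IgG1 mice and 97 in the ipilimumab mice, a ratio of 43.8 (95% counting interval 7.68 to 1748) with an adjusted p of 0.0393 by edgeR. The interval has the same limit as that of Arhgap15.

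Igkc, the constant segment of the immunoglobulin kappa light chain (chr6:70726435-70726966), was at 29.5, 27.8 and 14.6 CPM with IgG1 and at 254, 70.9 and 151 CPM with ipilimumab (log2 fold change 2.65, SE 0.481, adjusted p = 0.0467 by edgeR). Ipilimumab replicate 1 was highest and replicate 2 was nearest to the IgG1 mice. Without ipilimumab replicate 1 its log2 fold change was 2.15 (adjusted p = 0.0740 by edgeR), that of Satb1 3.35 (0.0559), that of Arhgap15 3.98 (0.0218) and that of Bank1 5.52 (0.0218).

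These counts came from few cells. UMIs of any of the 4 genes were present in 119 of the 536 members, 41 of which were possible doublets. The share was 14.0%, 14.3% and 12.9% of members with IgG1 and 34.2%, 10.6% and 26.2% with ipilimumab, so the groups overlapped (exact two-sided permutation p = 0.4). In ipilimumab replicate 2, 1 cell held 100 of the 108 UMIs of the 4 genes, among them all 41 Bank1 UMIs, and it had 3 of the 6 endothelial genes and 4 of the 5 B cell markers. The richest cell of ipilimumab replicate 1 held 27.1% of the UMIs of the 4 genes and that of replicate 3 held 33.7%, each also with 4 B cell markers.

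In B cells of the same lungs the 4 genes were at 2338 CPM (Arhgap15), 1833 CPM (Satb1), 2125 CPM (Bank1) and 9255 CPM (Igkc), and in aerocytes at 16.0, 9.90, 10.8 and 37.2 CPM. Without the possible doublets 0 genes were called by edgeR, with 388 at an unadjusted p under 0.05. Without the cells holding a T, B or NK marker UMI 0 were called as well, with 383 at an unadjusted p under 0.05. Arhgap15, Satb1 and Bank1 then had too few counts to be tested. Igkc was 0.88 on the log2 scale without the possible doublets (adjusted p = 0.753 by edgeR), and Igkc is itself among the markers that define both removals. With the estimated RNA from outside the cell subtracted, 3 of the 4 genes were called. Bank1 was not, at a log2 fold change of 5.13 (adjusted p = 0.116 by edgeR) against 5.29 before, and Igkc went from 2.65 to 5.57. The markers that set the estimate include the B cell markers and Igkc itself, so this fit is no independent check of the calls. The IgG1 mice held only 17 Igkc UMIs before subtraction, so the fold change of Igkc after it rests on few counts. Without IgG1 replicate 1, which held 100 of the 166 IgG1 cells, edgeR called 0 genes, with 335 at an unadjusted p under 0.05. Without IgG1 replicate 2 it called 7, and without ipilimumab replicate 2 it called 15. Over the fits without 1 mouse, the lowest log2 fold change was 3.31 for Arhgap15, 3.13 for Satb1, 4.08 for Bank1 and 2.15 for Igkc.

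Pathway lists gave no called gene, and over all genes tested 6.90% had an unadjusted p under 0.05. With no low-count filter, which raised the calls to 123, edgeR also called Cd74 (adjusted p = 0.000176), Ifit1 (0.0035), Lrg1 (0.0248) and Klf2 (0.0276), each described in its list. Mgp, the matrix Gla protein of the basement membrane and matrix list, was called there too (log2 fold change -2.78, adjusted p = 3.97e-20 by edgeR). That fit keeps genes of a few UMIs, its smallest adjusted p was 3.33e-79 by edgeR, and its calls are given as an alternative only. The groups overlapped for Mgp, and with the filter its adjusted p was 0.564 by edgeR. The richest cell held 97 of its 98 UMIs in IgG1 replicate 1 and 119 of 134 in ipilimumab replicate 1. Antigen presentation by MHC class II, by which peptides are shown to CD4+ T cells, had 7 genes tested, with 0 called, 3 at an unadjusted p under 0.05 and a median log2 fold change of 0.51, where the median over all genes was -0.0016. Cd74, the invariant chain, was at 458, 481 and 322 CPM with IgG1 and at 842, 1256 and 863 CPM with ipilimumab. Every ipilimumab mouse was higher, and the log2 fold change of 1.22 (SE 0.244) had an adjusted p of 0.0918 by edgeR and 0.00855 by DESeq2. The log2 fold change was 1.33 without ipilimumab replicate 1 (adjusted p = 0.0740 by edgeR).

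The class II chains H2-Eb1 and H2-Aa were also without overlap, with log2 fold changes of 0.88 (adjusted p = 0.447 by edgeR) and 0.60 (adjusted p = 0.660). B cells are rich in these transcripts, and B cell markers in the members were higher in the same mice. Without cells holding a T, B or NK marker UMI the log2 fold change of Cd74 was 0.79 (adjusted p = 0.450 by edgeR), that of H2-Eb1 0.59 and that of H2-Aa 0.20. The part of B cell RNA in the remaining difference was not tested.

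Interferon response genes, which are switched on by interferons in most cells, had 20 of 22 genes tested, 0 called, 6 at an unadjusted p under 0.05 and a median log2 fold change of 0.44. Groups did not overlap for 6 of the 20 genes (30%), where the share over all genes was 11.3%. Ifit1, an antiviral RNA-binding protein, was at 234, 426 and 205 CPM with IgG1 and at 548, 618 and 590 CPM with ipilimumab. The ipilimumab mice lay close together above the IgG1 mice, and the log2 fold change was 1.07 (SE 0.264, adjusted p = 0.190 by edgeR).

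Oasl2 was at 221, 185 and 278 CPM with IgG1 and at 341, 368 and 400 CPM with ipilimumab, also without overlap (log2 fold change 0.69, adjusted p = 0.50 by edgeR). Ifi44 had a log2 fold change of 0.95 (adjusted p = 0.568) and the GTPase Iigp1, the most abundant of the list, one of 0.42 (adjusted p = 0.807). Ifi44 was at 0.61 without ipilimumab replicate 3, and Iigp1 at 0.25 and 0.76 without IgG1 replicates 1 and 2. Without cells holding a T, B or NK marker UMI the log2 fold change was 1.23 for Ifit1 and 0.91 for Oasl2, and without ipilimumab replicate 1 it was 1.12 and 0.75, none of them past the threshold. Without IgG1 replicate 2 the adjusted p of Ifit1 was 0.0372 (log2 fold change 1.40).

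MHC class I genes had 13 genes tested with a median log2 fold change of 0.12, 0 called and 1 at an unadjusted p under 0.05. B2m, the shared light chain, was at 0.12 (adjusted p = 0.950 by edgeR), and H2-Q7 at 0.51 (adjusted p = 0.695).

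Flow-responsive and vasodilator genes had 8 genes tested, 0 called and a median log2 fold change of -0.22, with 2 at an unadjusted p under 0.05. Klf2, the transcription factor that laminar flow induces, was at 736, 1221 and 702 CPM with IgG1 and at 368, 628 and 314 CPM with ipilimumab. All 3 ipilimumab mice were lower than all 3 IgG1 mice, with a log2 fold change of -1.02 (SE 0.284, adjusted p = 0.358 by edgeR). Edn1, the vasoconstrictor endothelin 1, was at 160, 222 and 227 CPM with IgG1 and at 116, 115 and 100 CPM with ipilimumab, without overlap (log2 fold change -0.83, adjusted p = 0.444). Thrombomodulin (Thbd), an anticoagulant receptor, was at -0.28 (adjusted p = 0.895; -0.081 without IgG1 replicate 3).

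BMP and TGF-beta signaling genes had 16 of 18 genes tested, 0 called, 3 at an unadjusted p under 0.05 and a median log2 fold change of -0.15, and groups did not overlap for 5 of them (31.3%), where the share over all genes was 11.3%. Among the ligands, Bmp4 was at 59.0, 46.3 and 58.5 CPM with IgG1 and at 20, 37.2 and 17.9 CPM with ipilimumab, without overlap and with a log2 fold change of -1.25 (adjusted p = 0.473 by edgeR). Bmp6 was far more abundant, from 800 to 2103 CPM, and its log2 fold change was -0.61 (adjusted p = 0.641; -0.39 without IgG1 replicate 1). The receptor Bmpr2, at 1850 to 2443 CPM, had a log2 fold change of -0.12 (adjusted p = 0.954).

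Id3, a direct target of BMP signaling that blocks basic helix-loop-helix factors, was at 332, 352 and 234 CPM with IgG1 and at 176, 176 and 140 CPM with ipilimumab. The groups did not overlap, and the log2 fold change was -0.91 (SE 0.248, adjusted p = 0.358 by edgeR). Without ipilimumab replicate 1 it was -0.97, and without cells holding a T, B or NK marker UMI it was -1.02, neither past the threshold.

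VEGF, angiopoietin and apelin genes had 10 of 15 genes tested, 0 called, 1 at an unadjusted p under 0.05 and a median log2 fold change of -0.17. The lymphatic growth factor Vegfc had a log2 fold change of -0.65 (adjusted p = 0.646 by edgeR; -0.39 without IgG1 replicate 3), and Flt1, the VEGF decoy receptor and most abundant of the list, one of 0.21 (adjusted p = 0.925). The ligand Apln was not tested, since its UMIs were in 1.49% of members. Notch genes (9 tested, median -0.15) held no gene at an unadjusted p under 0.05, with Notch1 at -0.15 and its target Hes1 at 0.42. Coagulation genes (5 tested, median -0.21), with Tfpi at 0.62, and junction genes (8 tested, median -0.14), with Tjp1 (ZO-1) at -0.35 and occludin (Ocln) at -0.47, also held none. Leaving out 1 mouse moved Hes1 to as much as 0.64, Tfpi to between 0.22 and 1.0, Tjp1 to as little as -0.22 and Ocln to between -0.72 and -0.13.

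Leukocyte adhesion and chemokine genes had 8 of 14 genes tested, 0 called, 2 at an unadjusted p under 0.05 (25%) and a median log2 fold change of 0.33. The adhesion molecule Icam1 had a log2 fold change of 0.53 (adjusted p = 0.761 by edgeR; 0.18 without ipilimumab replicate 3) and the chemokine-scavenging receptor Ackr3 one of 0.69 (adjusted p = 0.629). Cx3cl1, the membrane-bound chemokine fractalkine, was at 44.3, 64.8 and 65.8 CPM with IgG1 and at 23.6, 23.6 and 39.5 CPM with ipilimumab. These groups did not overlap, with a log2 fold change of -0.88 (adjusted p = 0.702). Lipid uptake genes (5 tested) had a median of 0.00, with the fatty acid carrier Cd36 at -0.07 and the HDL receptor Scarb1 at 0.19.

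Genes linked to injured endothelium (5 of 8 tested, median 0.40, 1 at an unadjusted p under 0.05) included Lrg1, a secreted modulator of TGF-beta signaling in vessels, at 32.0, 120 and 29.2 CPM with IgG1 and at 172, 70.9 and 126 CPM with ipilimumab. The groups overlapped (log2 fold change 1.31, SE 0.459, adjusted p = 0.535 by edgeR; 0.82 and 2.01 without IgG1 replicates 1 and 2), and Cxcl12 was at -0.18. Basement membrane and matrix genes (11 of 17 tested, median -0.13, 2 at an unadjusted p under 0.05) included Timp3 at 0.28 (0.11 to 0.50 without 1 mouse) and the collagen IV chain Col4a2 at -0.64 (adjusted p = 0.695). Mgp had the lowest p of this list, with overlapping groups and a log2 fold change of -2.90 (adjusted p = 0.564 by edgeR). Its value was -0.67 without IgG1 replicate 2 and -6.55 without ipilimumab replicate 1. Genes of mesenchymal transition were mostly too low to test, with 3 of 10 tested (Vim at -0.07, Zeb1 at 0.24).

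Cell division genes had 2 of 10 tested (Tubb5 at 0.01, Stmn1 at -0.14), and senescence and p53 target genes 3 of 10, with the cell cycle inhibitor Cdkn1a at 0.31 (adjusted p = 0.910 by edgeR) and Bax at 0.28. When 1 mouse was left out, Cdkn1a lay between 0.044 and 0.50 and Bax between 0.0090 and 0.41. Immediate early and dissociation genes, which respond to tissue handling, were all tested (16 genes, median 0.09, 0 called, 4 or 25% at an unadjusted p under 0.05). Among them Egr1 was at 0.46 (0.17 without ipilimumab replicate 3) and Ier3 at 0.50, and the heat shock genes Hspa1a and Hspa1b at -0.93 and -1.17. Without IgG1 replicate 2 these were -0.34 and -0.083, so that their size rested on that mouse.

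**Figure D5:**
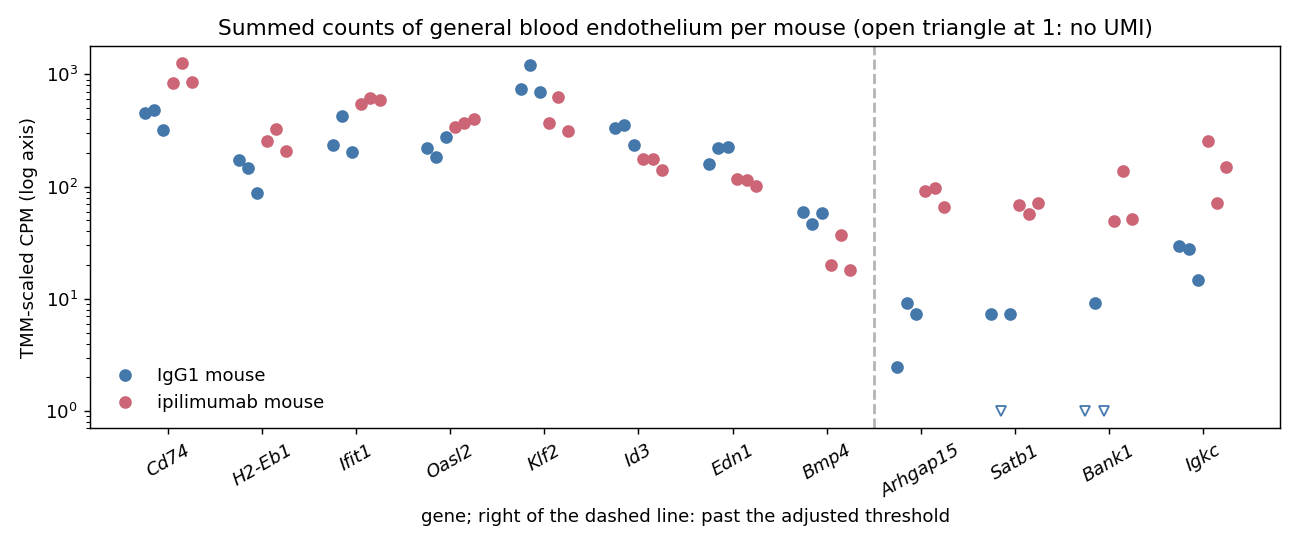
TMM-scaled CPM (log axis) of 12 genes in the summed members of each mouse, with IgG1 mice in blue and ipilimumab mice in red. The 8 genes left of the dashed line did not pass the adjusted threshold. They were picked for display among named genes whose groups do not overlap, as was so for 11.3% of all 5533 genes tested. The 4 on the right, which passed the threshold, lie at 0 to 29.5 CPM in the IgG1 mice.

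Of 5 genes that an earlier look at these mice had called in an endothelial cluster, 3 were abundant enough to test here and 0 were called. Plcb1, a phospholipase C, was at 4190, 2406 and 3933 CPM with IgG1 and at 3717, 3273 and 3075 CPM with ipilimumab. The groups overlapped, with a log2 fold change of -0.07 (adjusted p = 0.980 by edgeR). Smad6, the inhibitory SMAD, had a log2 fold change of -0.39 (adjusted p = 0.865; -0.13 without ipilimumab replicate 3) and Sparcl1, a matrix protein, one of 0.15 (adjusted p = 0.960; 0.050 to 0.34 without 1 mouse). Camk4 was seen in 9 members, and Gm29865 had no UMI in members but was present in the aerocytes of every mouse, from 17.3 to 184 CPM.

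In aerocytes, summed in the same way, 0 of 5702 genes were called between treatments by edgeR, with 340 at an unadjusted p under 0.05. A model of both cell sets with the mouse as a block tested whether the treatment difference differed between them. Of 6695 genes, 1 was called (0.0149%), Mgp, the matrix Gla protein that inhibits calcification, and 240 had an unadjusted p under 0.05. Its difference of log2 fold changes, members minus aerocytes, was -4.26 (SE 0.686, adjusted p = 0.0185 by edgeR). For no other gene did the members' treatment difference depart from that of aerocytes past the threshold, which includes Klf2, Id3, Cd74 and Ifit1.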

How the data were processed

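Each library came from 1 mouse. The authors used Cell Ranger and the mm10 genome (version 7.0.0 in the submitters' processing notes, though the file headers and the methods name other versions) and deposited raw UMI counts for every barcode, empty ones included, before any filtering or ambient correction. Depth was 37666042 to 48612412 UMIs per library. Gating, without clustering, followed the limits in the report. Gene lists and members were chosen with earlier results of these data known, so no list is independent evidence. B cells had at least 2 UMIs of Cd79a, Cd79b and Ms4a1 and none of the 6 endothelial genes. No doublet caller was run. Members with 2 or more genes of another lineage list were marked as possible doublets, kept, and left out as an alternative. RNA outside cells was taken from barcodes under 100 UMIs.

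Counts were summed per mouse and tested with edgeR 4.0.16 (R 4.3.3; filterByExpr, TMM, quasi-likelihood F test, Benjamini-Hochberg), with DESeq2 1.42.0 as an alternative. The standard error is the log2 fold change over the square root of F. CPM of single genes are TMM-scaled, and those of marker lists, B cells and aerocytes are per total UMIs. Shares were compared over mice by exact two-sided permutation tests, and unequal depth was handled by hypergeometric thinning to 1000 UMIs. Counting intervals are 95% Wilson or, for ratios, Clopper-Pearson, and cover counting error only. Those for ratios take UMIs as independent, also where 1 cell holds many of them.

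The text names the genes called, in each pathway list the most abundant gene, the gene with the lowest p and up to 2 more at an unadjusted p under 0.05, the genes called earlier, and genes called against aerocytes. Vessel genes and the cells behind the calls were examined after the values were seen. On simulated counts for the treatment comparison (5533 genes), 30% of 100 genes changed by 1 log2 unit and 87% of 100 changed by 2 were recovered, with 2 false calls. Same-numbered mice did not deviate together (correlations 0.0757, -0.0906 and -0.0391), so numbers were not treated as pairs. Positions are from GENCODE vM21 on GRCm38, the assembly of mm10. No sequence is printed.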

Additional observations from a re-analysis of the deposited data

Results flagged for a closer look

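Mgp was the gene whose treatment difference differed between members and aerocytes, by -4.26 on the log2 scale in an interaction test (adjusted p = 0.0185 by edgeR). In members its UMIs numbered 98, 209 and 0 in the IgG1 mice and 134, 0 and 6 in the ipilimumab mice. They were in 2, 4 and 0 cells with IgG1 and in 13, 0 and 5 cells with ipilimumab, and the richest cell held 97 of the 98, 105 of the 209 and 119 of the 134. In aerocytes the UMIs numbered 0, 12 and 1 with IgG1 and 58, 1 and 1 with ipilimumab. Leaving out either of IgG1 replicates 1 and 2, or of ipilimumab replicates 1 and 2, gave 0 calls, and in the members alone Mgp had an adjusted p of 0.564 by edgeR, and it passed the threshold there with no low-count filter and without ipilimumab replicate 1 and possible doublets together (adjusted p = 0.0345 by edgeR in the latter). The part of single Mgp-rich cells in this difference was not tested.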

How the results depend on the processing

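The member share kept its direction, without passing the test, under the gates and denominators tried, at differences from 0.725 (without T, B or NK marker cells) to 14.8 percentage points (as a share of blood endothelium). Leaving out 1 mouse gave 1.15 to 1.85. For Gpihbp1 the difference in share turned from -1.19 to 1.03 with at least 4 endothelial genes, 6.77 with no Car4 and Ednrb limit, 0.979 without possible doublets, 5.54 with the gate after thinning and 0.214 without cells of 2 or more AT2 genes, and ranged from -4.02 to 2.09 without 1 mouse. For Plvap it turned from -8.47 to 2.63 with no Car4 and Ednrb limit and was -15.8 at 5% mitochondrial UMIs and -3.78 with the gate after thinning. Without 1 mouse it ranged from -10.9 to -5.88. The mean Vwf share was lower with ipilimumab in each alternative run, by -9.63 to -4.59 without 1 mouse and by -2.75 with no Car4 and Ednrb limit. The groups overlapped with no such limit, at 2000 UMIs, at 5% mitochondrial UMIs and without T, B or NK marker cells.

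The 4 calls became 123 with no low-count filter, 16 with no Car4 and Ednrb limit, 2 in cells with a Gpihbp1 UMI and 1 at 5% mitochondrial UMIs. They became 0 with at least 2 endothelial genes, at least 4, the gate after thinning, without possible doublets and without T, B or NK marker cells. Leaving out 1 mouse gave 0 to 15. Leaving out ipilimumab replicate 1 and possible doublets gave 10, a choice made after seeing the data, as were the removals of AT2 and lymphocyte marker cells. The call against aerocytes became 14 with no low-count filter and 0 to 11 without 1 mouse. With the replicate number as a block, 3 of the 4 genes were called (Satb1 at an adjusted p of 0.0818 by edgeR), and the pairing has no basis in the labels.

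Of 55 single genes, 38 kept their direction. Of 37 with an absolute log2 fold change over 0.3, 18 moved by over 1.5 times without 1 mouse, none of them among the 4 genes called. All 18 others, with smaller fold changes, also moved by over 1.5 times, by at most 0.34 on the log2 scale. With at least 2 endothelial genes the log2 fold change was -0.83 for Arhgap15, -0.53 for Satb1, -0.58 for Bank1, -0.24 for Sparcl1, -0.10 for Bax, -0.077 for Tubb5, -0.029 for Zeb1 and 0.032 for Vim. After thinning it was -0.52 for Arhgap15, 0.061 for Notch1, 0.061 for Cd36, 0.15 for Plcb1, -0.15 for Bax, -0.14 for Tubb5 and 0.018 for Plvap. With no Car4 and Ednrb limit it was -0.048 for Hes1, -0.068 for Timp3, 0.048 for Vim, 0.035 for Cxcl12, -0.18 for Tubb5, 0.28 for Plcb1, 0.068 for Gpihbp1 and 0.072 for Plvap. In cells with a Gpihbp1 UMI it was 0.49 for Vwf, 0.017 for Vim, 0.060 for Plcb1 and -0.11 for Tubb5. Tubb5 was at -0.068 with at least 4 genes, -0.024 at 2000 UMIs, -0.046 at 5% mitochondrial UMIs, -0.014 without TMM factors, -0.00062 with upper-quartile factors, -0.046 without possible doublets, -0.14 without lymphocyte marker cells and -0.13 without these doublets and ipilimumab replicate 1. Vim was at 0.037 with Car4 and Ednrb at 0 and 0.0053 with no low-count filter, and Plcb1 at 0.012 at 5% mitochondrial UMIs. Without 1 mouse Cd36 ranged from -0.18 to 0.024, Vim from -0.18 to 0.092, Cxcl12 from -0.51 to 0.16, Tubb5 from -0.12 to 0.11 and Plcb1 from -0.27 to 0.082. The causes of these changes were not tested. With 31 to 155 members per mouse, differences of 1 log2 unit were mostly out of reach, and 3 against 3 mice cannot pass an exact test.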

Other observations

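A set of genes of larger vessels was found in few members each. Cytl1, a small secreted protein, was chosen for display after its values were seen. Its UMIs numbered 96, 35 and 0 in the IgG1 mice and 17, 0 and 6 in the ipilimumab mice, in 2, 3 and 0 cells and in 3, 0 and 4 cells, and a single cell of IgG1 replicate 1 held 84 of them. The venous gene Slc6a2 was present in every mouse, in 3.0%, 8.57% and 6.45% of members with IgG1 and in 3.87%, 2.35% and 6.92% with ipilimumab, and the groups overlapped.

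Without ipilimumab replicate 1 and the possible doublets together, edgeR called 10 genes, 4 higher and 6 lower with ipilimumab, and shared none with the 4 genes called in all members.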
